A study of Homo sapiens with 6 samples.

Results

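The genes described here are 9 genes that write, oxidise or read 5-methylcytosine in DNA: the methyltransferase genes DNMT1, DNMT3A and DNMT3B, the dioxygenase genes TET1, TET2 and TET3, and the methyl-CpG binding domain genes MBD1, MBD2 and MBD4. They were chosen by symbol among 18417 genes on the array, and DNMT3B heads them because its difference between the groups was known beforehand. The values of DNMT3B are therefore a description of these arrays, and its p-value is not independent evidence. All 9 had a probe set annotated to 1 symbol, and all 9 passed the filter on low values, which left 13812 genes.

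RNA came from A172, T98G and U87MG, established human glioblastoma cell lines, and was hybridised to Affymetrix Human Gene 1.0 ST arrays. For every line there is 1 array of cells given a negative control and 1 of cells given pre-miR338-5p (called the mimic), both taken 24 hours after transfection. Every array comes from cells that had been transfected, so the control carries the effects of transfection too. Values are log2 expression, so a difference of 1 is a doubling. Over probe sets, r was at least 0.992 between the arrays of 1 line and at most 0.962 between lines. Array medians lay between 5.06 and 5.14, and the filter on low values stood at 4.28.

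Of 17 glial and glioma markers 12 passed the filter and 5 lay below it. VIM lay between 11.9 and 12.6 and CD44 between 11.5 and 11.9 over the 6 arrays. Others varied by line. TNC ran from 4.04 in A172, under the filter level, to 10.68 in U87MG, and CHI3L1 from 4.82 in A172 to 9.91 in U87MG. EGFR, a growth factor receptor gene, had the smallest p of the glial list, at -0.46 ± 0.12 with the mimic (adjusted p = 0.0641 in limma's fit). GFAP, the astrocyte filament gene, lay between 5.07 and 5.39, while S100B, AQP4, SLC1A2 and FABP7 were among those below the filter by their mean. Of the markers of other cell types, 4 of 8 leukocyte, 3 of 6 endothelial, 7 of 9 neuronal and 4 of 6 epithelial genes passed the filter. Some were high: KRT18 lay between 8.48 and 10.86 and CD68 between 8.29 and 10.4. KRT8, NEFL and SNAP25 depended on the line. KRT8 ran from 4.90 in U87MG to 10.49 in A172, and was at most 5.63 in T98G. NEFL ran from 4.13 in U87MG, under the filter level, to 11.03 in A172, and was at most 4.79 in T98G. SNAP25 ran from 4.69 in A172 to 8.11 in U87MG. PTPRC, CD3E, PECAM1, VWF and CDH1 were below the filter by their mean. Of the 30 fitted genes in the 5 marker lists, 0 passed limma's adjusted threshold with the mimic, and 4 had an unadjusted p under 0.05. The shares of all fitted genes were 1.11% and 11.8%.

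DNMT3A and DNMT3B place methyl groups on unmethylated CpG dinucleotides, and DNMT1 copies the pattern to the new strand after replication. TET enzymes oxidise the methyl group, which starts its removal. The MBD1, MBD2 and MBD4 proteins bind methylated CpG. MBD4 is also a glycosylase that removes the mismatched base left by deamination of a methylated cytosine. A microRNA pairs with messenger RNAs mainly through its seed, bases 2 to 8, and usually lowers them.

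The sequence of the mature microRNA is shown because it is what distinguishes the groups; it is from RefSeq (GRCh38.p14), lies at chr17:81125923-81125944 on the minus strand, and has its seed in capitals.
hsa-miR-338-5p: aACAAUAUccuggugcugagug
A messenger RNA that pairs with the whole seed carries ATATTGT. Of the mature human microRNAs in the RefSeq table, no other name has this seed. Messenger RNA sequences of the 9 genes were not searched here for this match.

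The groups were compared to ask which genes respond to the microRNA. DNMT3B, a de novo methyltransferase, rose with the mimic in every line. Its level went from 5.30 to 6.03 in A172, from 5.09 to 5.87 in T98G and from 5.22 to 5.72 in U87MG. The signal was low: the control values lay close to the array medians (5.06 to 5.14). By its mean DNMT3B was among the lowest 50% of genes. The lowest array with the mimic stood above the highest control array, so the groups did not overlap. The mean change was 0.67 ± 0.15 (SD over lines, n = 3), or 1.59-fold, with a 95% interval from 1.38 to 1.83 and adjusted p = 0.024 in limma's fit with the cell line as a block. DNMT3B was the 1 member of 9 past the threshold, against 1.11% of all fitted genes in either direction and 0.319% called higher. Among the 44 genes called higher it had the rank 18 by size. Its call was lost when any 1 line was left out (0.64 and adjusted p = 0.0866 without A172, 0.61 and 0.052 without T98G, 0.75 and 0.132 without U87MG) and with no filter on low values (0.0531). It was also lost without the cell line in the model, where adjusted p was 1.00 and 0 genes were called.

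**Figure D1:**
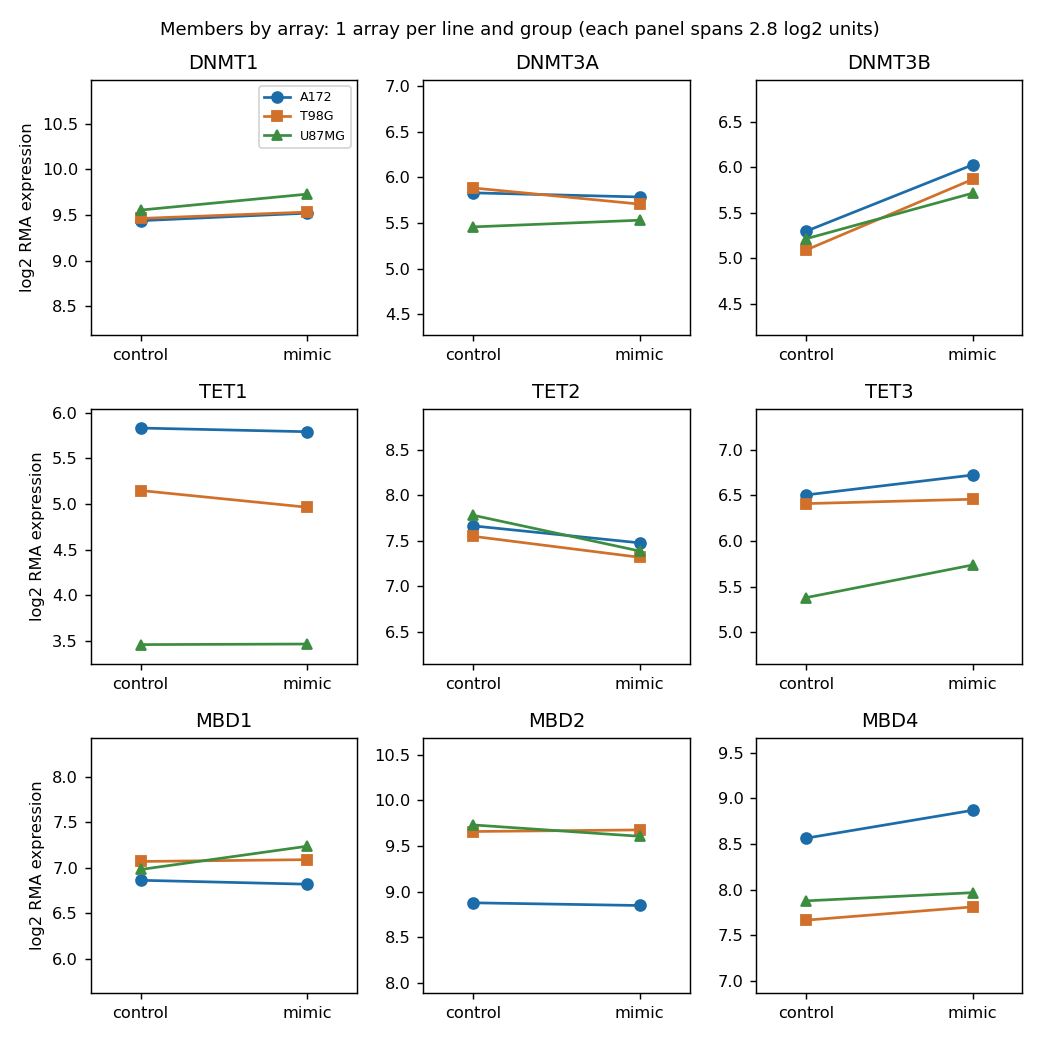
Log2 expression of the 9 genes on each of the 6 arrays, with control on the left and mimic on the right of each panel and 1 joined pair of points per line. DNMT3B rises in each of the 3 lines to between 5.72 and 6.03. U87MG lies apart from the other lines for TET1 and TET3, and A172 for MBD2 and MBD4. TET3 and MBD4 are also higher with the mimic in each pair.

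The size of the DNMT3B change was 0.73 in A172, 0.77 in T98G and just under 0.50 in U87MG. A change at least as high was seen in 0.521% of fitted genes in A172, 0.224% in T98G and 1.38% in U87MG. Changes of at least 0.5 in either direction were found in 3.69% of fitted genes in A172, 3.71% in T98G and 3.22% in U87MG. DNMT3B was the 1 member of 9 past that size in A172 and in T98G, and 0 of 9 members were past it in U87MG. A line has 1 array per group, so whether the response differs between lines was not tested.

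The other methyltransferase genes did not pass the threshold. DNMT1, the maintenance enzyme, was at 9.44 and 9.52 in A172, 9.46 and 9.53 in T98G, and 9.55 and 9.73 in U87MG, with the control first in each pair. It was slightly higher with the mimic in each line, by 0.11 ± 0.06 on average (95% interval -0.07 to 0.28, adjusted p = 0.632 in limma's fit). DNMT3A, the other de novo enzyme, was at 5.83 and 5.78 in A172, 5.88 and 5.71 in T98G, and 5.46 and 5.53 in U87MG. Its mean difference was -0.05 ± 0.12 (95% interval -0.24 to 0.14, adjusted p = 0.858), and its groups overlapped. The upper bound of DNMT3A lay below the lower bound of DNMT3B, which was 0.46. DNMT3B heads the list because its difference was already known, and no test compared these genes with each other.

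TET2 was lower with the mimic in every line, but the difference did not pass the adjusted threshold. It was at 7.66 and 7.48 in A172, 7.55 and 7.32 in T98G, and 7.78 and 7.39 in U87MG, again control first. The lowest control array stood above the highest array with the mimic. The mean difference was -0.27 ± 0.11 (SD, n = 3; unadjusted p = 0.012, adjusted p = 0.235 in limma's fit). TET2 is the one gene of the 9 with more than 1 probe set, and the brighter was used, at a mean of 7.53 against 7.46. The other probe set also differed downward, by -0.10 in A172, -0.36 in T98G and -0.31 in U87MG.

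TET3 was at 6.50 and 6.72 in A172, 6.41 and 6.46 in T98G, and 5.38 and 5.74 in U87MG, higher with the mimic in each pair. The mean difference was 0.21 ± 0.16 (unadjusted p = 0.0487, adjusted p = 0.418 in limma's fit), and the groups overlapped. TET1 was at 5.83 and 5.79 in A172, 5.15 and 4.97 in T98G, and 3.46 and 3.47 in U87MG. Its mean difference was -0.07 ± 0.10 (adjusted p = 0.773), and both U87MG arrays lay below the filter level.

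Among the methyl-CpG binding genes, MBD4 was higher with the mimic in each line, at 8.56 and 8.87 in A172, 7.67 and 7.81 in T98G, and 7.88 and 7.97 in U87MG. The mean difference was 0.18 ± 0.11 (adjusted p = 0.444 in limma's fit). MBD1, a reader that acts in transcriptional repression, was at 6.86 and 6.82 in A172, 7.07 and 7.09 in T98G, and 6.98 and 7.24 in U87MG (0.08 ± 0.16, adjusted p = 0.787). MBD2, the reader that joins the NuRD remodelling complex, was at 8.88 and 8.85 in A172, 9.66 and 9.68 in T98G, and 9.73 and 9.61 in U87MG (-0.05 ± 0.07, adjusted p = 0.858).

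**Figure D2:**
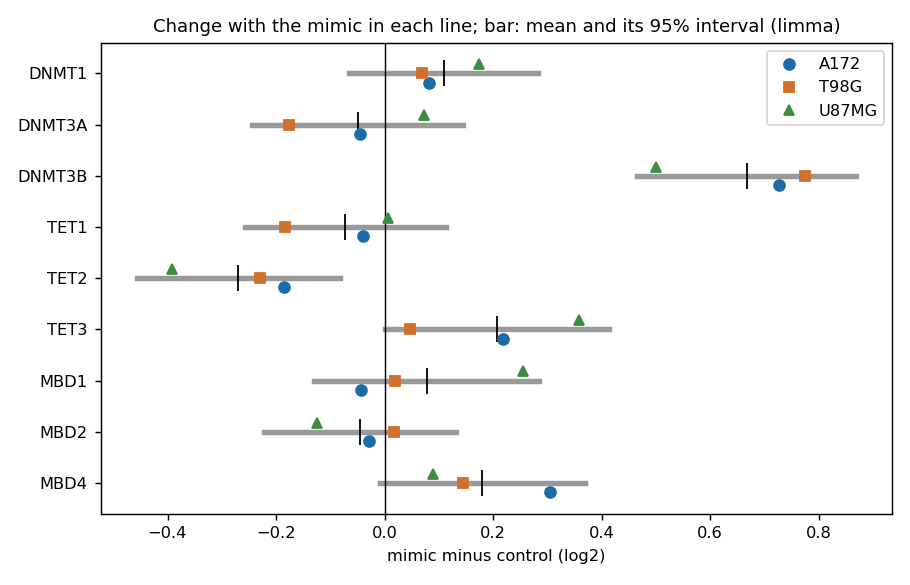
Mimic minus control on the log2 scale for each gene (horizontal axis), with 1 symbol per line, the mean as a vertical tick and its 95% interval from limma's fit as a grey bar. The interval of DNMT3B runs from 0.46 to 0.87; that of TET2 lies below 0 and that of TET3 just above it, although neither passes after adjustment over all genes.

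Of the 9 genes, 5 differed in the same direction in every line (DNMT1, DNMT3B, TET2, TET3 and MBD4), while 34.3% of all fitted genes went the same way in every line. The groups did not overlap for 2 of 9 members, DNMT3B and TET2, against 2.96% of fitted genes. An unadjusted p under 0.05 in limma's fit was found for 3 of 9 members (DNMT3B, TET2 and TET3) and for 11.8% of fitted genes. DNMT3B, whose difference was known beforehand, is in each of these member counts. They therefore describe the members and are not independent evidence about them as a set. The median change was 0.08 over the members and 0.0068 over all fitted genes.

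The lines were compared next, over both arrays of each line with the group as an additive term. These arrays differ in treatment, so no line has a replicate of the same treatment. The spread in this fit holds treatment-by-line differences as well. Of the 9 genes 5 differed between lines by limma's F test, against 67.5% of all fitted genes. That count includes TET1. TET1 had a mean over both arrays of 5.81 in A172 and 5.06 in T98G, a difference of -0.76 for T98G minus A172 (adjusted p = 0.000723). In U87MG both arrays were below the filter level of 4.28, and TET1 was fitted only through the other lines, so no size is given for its difference from U87MG. TET3 was also lowest in U87MG, at 5.56 against 6.43 in T98G (-0.88 for U87MG minus T98G, adjusted p = 0.000668) and 6.61 in A172, and the latter pair did not differ beyond their spread (adjusted p = 0.201). TET2 lay between 7.43 and 7.58 in the 3 lines and was not called (adjusted p = 0.336).

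MBD2 and MBD4 set A172 apart in opposite directions. MBD2 was 8.86 in A172 and 9.67 in both T98G and U87MG, a difference of 0.81 for each against A172 (adjusted p = 0.000457 and 0.000423). MBD4 was 8.72 in A172, 7.92 in U87MG and 7.74 in T98G, with -0.98 for T98G minus A172 (adjusted p = 0.000252) and -0.80 for U87MG minus A172 (0.000599). T98G and U87MG did not differ beyond their spread in either gene (adjusted p = 0.994 for MBD2 and 0.167 for MBD4). MBD1 lay between 6.84 and 7.11 and was not called (adjusted p = 0.105).

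DNMT1 and DNMT3B were not called between the lines. DNMT1 lay between 9.48 in A172 and 9.64 in U87MG (adjusted p = 0.251 in limma's F test), and DNMT3B between 5.47 in U87MG and 5.66 in A172 (0.219). In DNMT3B the 3 control arrays spanned 5.09 to 5.30, a narrower range than the step to the mimic. DNMT3A was lowest in U87MG at 5.49, against 5.80 in T98G and 5.81 in A172. Its F test gave adjusted p = 0.0428, and the call was lost in 9 of 12 alternatives (highest adjusted p = 0.322, without the U87MG control array). By pairs of lines, 3 of 9 members were called between T98G and A172, 5 between U87MG and A172, and 3 between U87MG and T98G. The shares of all fitted genes were 50.5%, 54.2% and 47.1% in the same order. Both counts with U87MG include TET1, whose level there was below the filter.

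**Figure D3:**
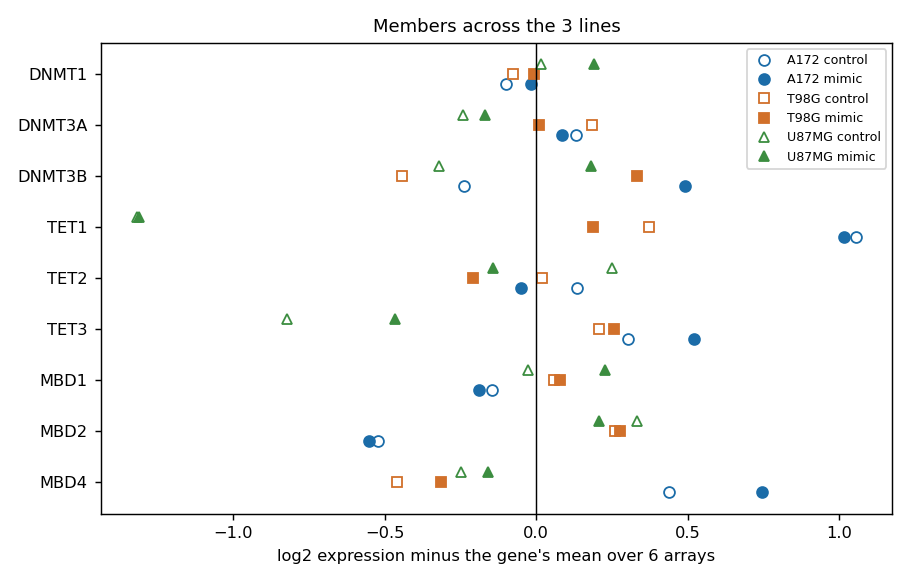
Log2 expression of each gene minus its own mean over the 6 arrays (horizontal axis), with open symbols for control and filled symbols for mimic arrays. U87MG lies lowest for TET1 and TET3, A172 lies lowest for MBD2 and highest for MBD4, and DNMT3B separates open from filled symbols.

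Genes that work with these enzymes, or whose expression is commonly tied to DNA methylation, were taken from 8 lists. Of 110 listed genes 72 were fitted, 21 lay below the filter and 17 had no probe set with 1 symbol. With the mimic 0 of the 72 passed limma's adjusted threshold, against 1.11% of all fitted genes. An unadjusted p under 0.05 was found for 11, or 15.3% against 11.8% of all fitted genes. Of 9 fitted partners of the methyltransferases 8 had a positive difference (median 0.10, against 0.0068 over all fitted genes) and 0 passed. HELLS, a remodelling helicase needed for normal DNA methylation, went from 7.36 to 7.66 in A172, 7.15 to 7.41 in T98G and 7.79 to 7.93 in U87MG (0.23 ± 0.08, adjusted p = 0.292). TRDMT1, which shares the methyltransferase fold but acts on transfer RNA, differed by 0.21 ± 0.21 (adjusted p = 0.466). UHRF1, which brings DNMT1 to newly copied DNA, differed by -0.09. DNMT3L, the catalytically inactive partner of the de novo enzymes, lay below the filter.

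The list on oxidised and deaminated bases holds base excision repair genes, the GADD45 genes and the cytidine deaminase gene APOBEC3B. Its 12 fitted genes had a median of 0.07 and 0 calls. TDG, the glycosylase that removes the oxidised bases made by TET enzymes, had the smallest p among them. It was 5.92 and 5.64 in A172, 6.08 and 5.41 in T98G, and 5.32 and 4.98 in U87MG, control first, which gave -0.43 ± 0.21 (adjusted p = 0.14 in limma's fit). XRCC1, a scaffold of base excision repair, differed by 0.20 ± 0.02 (adjusted p = 0.325). Of 8 fitted TET cofactors and partners 4 had a positive and 4 a negative difference (median -0.03), with CXXC5 at -0.19 and SMAD2 at -0.15 (adjusted p = 0.422 and 0.481).

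In the NuRD complex, 8 of 11 fitted genes had a positive difference (median 0.06, against 0.0068 over all fitted genes) and 0 passed. GATAD2B, a subunit that binds MBD2 or MBD3, had the smallest p, at -0.33 ± 0.12 and lower in each line (adjusted p = 0.157 in limma's fit). MTA3 differed by 0.17 ± 0.28 (adjusted p = 0.636). A list of further MBD and ZBTB family genes had 6 fitted (MBD3, MBD5, MBD6, ZBTB4, ZBTB33 and ZBTB38). All 6 had a positive but small difference (median 0.06). ZBTB4 was at 0.10 and MBD5 at 0.14, both with adjusted p = 0.664 in limma's fit. In the methionine and folate cycle, which supplies the methyl donor S-adenosylmethionine, 10 genes had a median of 0.01. MTRR, which reactivates methionine synthase, differed by -0.39 ± 0.17 and was lower in each line (adjusted p = 0.136), and MAT2B, a regulatory subunit of the enzyme that makes the donor, by 0.21 ± 0.09 (adjusted p = 0.359).

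Genes whose expression is commonly tied to DNA methylation did not pass the threshold in the comparison of groups. Of 26 cancer-testis and germline genes 15 lay below the filter, 7 had no probe set with 1 symbol and 4 were fitted, with 0 calls and a median of -0.06. CTAG2 differed by -0.17 and MAGEC1 by -0.11 (adjusted p = 0.508 and 0.622). Of 12 fitted imprinted genes 6 had a positive and 6 a negative difference (median -0.03); PHLDA2 was at -0.28 and CDKN1C at -0.21 (adjusted p = 0.287 and 0.323). Between the lines 53 of the 72 genes were called, against 67.5% of all fitted genes. That count includes MAGEC1, which passed the filter only through U87MG. DIRAS3, an imprinted GTPase gene, was 9.89 in the A172 control, 4.59 in that of T98G and 6.41 in that of U87MG (adjusted p = 3.79e-06 in the F test). PEG10, an imprinted gene derived from a retrotransposon, was 7.71, 10.76 and 10.97 in the same order (1.17e-06). SSX1 was 6.71 in the U87MG control, against 4.46 in that of A172 and 4.15, under the filter level, in that of T98G. MAGEC1 was 5.53 in the U87MG control and below the filter level on all arrays of A172 and T98G, so it was fitted only through the line where it is high. CDCA7, a partner of HELLS, was lowest in A172, with a mean over both arrays of 5.32, against 8.14 for T98G and 7.59 for U87MG (adjusted p = 2.11e-06). IDH2, whose product 2-oxoglutarate is the cosubstrate of TET enzymes, was highest in T98G, at 9.43 against 8.40 in A172 and 7.63 in U87MG. In the NuRD list CHD3 was highest in A172 at 8.78, and HDAC1 lowest there at 9.02. The cytidine deaminase gene APOBEC3B was highest in T98G at 10.85, against 9.33 for A172 and 10.21 for U87MG, and GADD45B was highest in A172, at 8.23. PCNA, ZBTB33, ZBTB4, IDH3A, MTHFD1, AHCYL1, CDC45 and MCM5 were the other genes of smallest F test p in their lists, and each was called between lines.

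**Figure D4:**
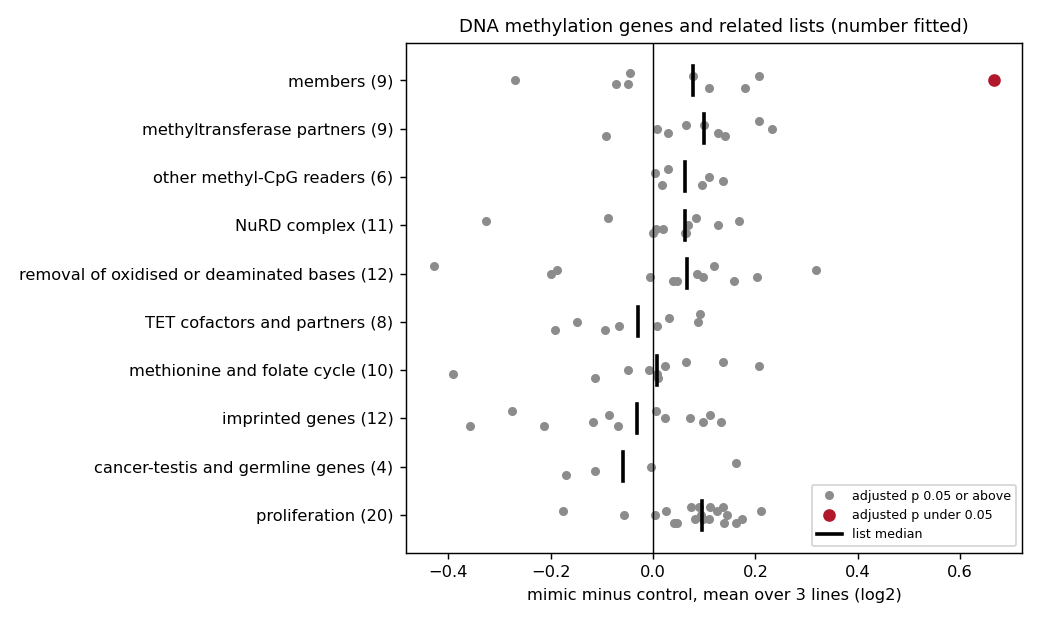
Mimic minus control, as the mean over the 3 lines on the log2 scale, for each fitted gene (points) of the 9 members, the 8 related lists and the proliferation list, with the list median as a black tick. DNMT3B at 0.67 is the single gene past the adjusted threshold and lies beyond every other point.

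DNMT1 copies the methylation pattern after replication, so proliferation genes are given beside the members. Of 20 fitted proliferation genes 18 had a positive difference and 0 passed. The median was 0.10, against 0.0068 over all fitted genes, of which the share with a positive difference was not counted. By line the proliferation median was 0.05 for A172, 0.08 for T98G and 0.13 for U87MG. CCNA2 was at 0.21 ± 0.09 and CCNE2 at 0.16 ± 0.08 (adjusted p = 0.341 and 0.457 in limma's fit), and their part in the differences of the members was not tested.

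The 5 fitted genes nearest to DNMT3B were found by the root mean square difference of log2 values over the 6 arrays after each gene was centred on its mean. They were GABPA, an ETS family transcription factor (0.10), HMBOX1, a homeobox protein that binds telomeric repeats (0.11), PYGO2, a coactivator in Wnt signalling (0.12), RIF1, a protein of replication timing and double-strand break repair (0.13), and FBXL12, an F-box protein of a ubiquitin ligase (0.13). GABPA went from 7.90 to 8.66 in A172, 7.85 to 8.44 in T98G and 7.65 to 8.42 in U87MG. The mean changes were 0.71 for GABPA, 0.57 for HMBOX1, 0.55 for FBXL12 and 0.49 for RIF1, each past limma's adjusted threshold, and 0.49 for PYGO2, which did not pass (adjusted p = 0.102). Likeness to DNMT3B over arrays of both groups favours genes that rose, so their calls add nothing to its own.

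**Figure D5:**
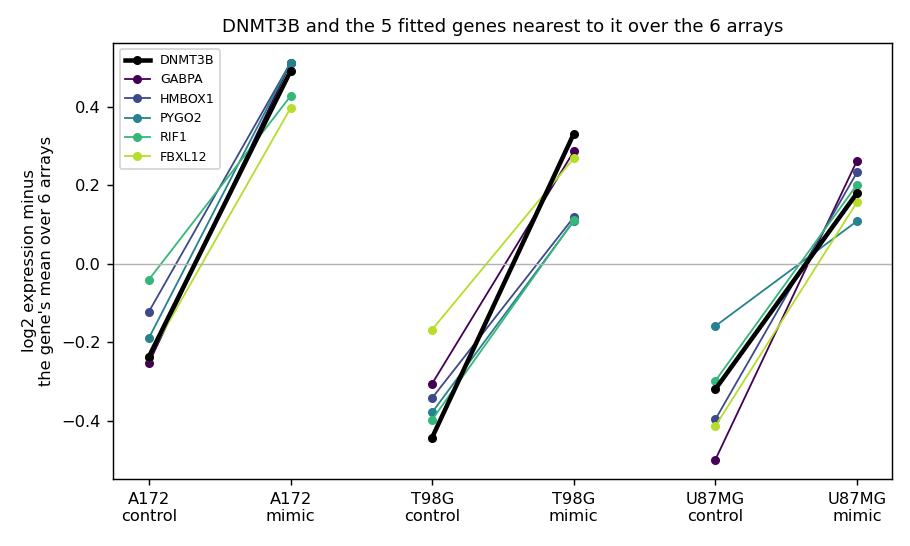
Log2 expression minus the gene's mean over the 6 arrays (vertical axis) for DNMT3B (thick black line) and the 5 nearest fitted genes, with control and mimic joined within each line. All 6 genes are higher with the mimic in every line, and DNMT3B runs closest to GABPA.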

How the data were processed

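The authors deposited 1 table of log2 expression for 33297 probe sets on 6 arrays, made by RMA (background correction, quantile normalization and summarization) with oligo in R 3.0.1 per the submitters' processing notes. Quantile normalization removes most of a change shared by most genes. Scanner files were not used here. Symbols came from the array's platform annotation (19460 probe sets with 1 symbol, 1754 with several, 12083 not listed), and 19429 of the first kind matched RefSeq (GRCh38.p14), used for names. Per gene the brightest probe set by mean was kept, and the lowest 25% of 18417 genes were left out. Fits used limma 3.58.1 in R 4.3.3 (two-sided, Benjamini-Hochberg over 13812 genes, threshold 0.05) and were checked on simulated data. The mimic fit had the line as a block, since labels name each array's line (deviations from the group mean correlated within lines with r = 0.936, 0.925 and 0.936); its residual degrees of freedom were 2 among arrays and 6.56 with the prior. The labels name neither separate cultures nor a batch. The p-values of the mimic fit therefore rest on the spread of the change between these lines. Those between lines rest on 1 control and 1 mimic array per line, with no replicate of the same treatment. A batch that followed the groups was not tested. The number of arrays limits the precision. Members and lists were chosen with earlier results of these data known. Genes named were all 9 members and the 5 nearest to DNMT3B. Of each related list those called were named, or else the 2 of smallest p in the mimic fit. The 2 of smallest F test p for lines were named too. UHRF1 and DNMT3L were added for their roles. For the cell type markers this rule was not followed, and VIM, CD44, GFAP, PTPRC and others were named outside it.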

Additional observations from a re-analysis of the deposited data

Results flagged for a closer look

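In 4 members the difference between mimic and control had opposite signs in different lines, with 1 pair of arrays per line, so these differences between lines were not tested. The highest and the lowest line differed by 0.25 (log2) in DNMT3A, which was higher with the mimic in U87MG alone. In MBD1 they differed by 0.30, with A172 the 1 line below 0. In TET1 they differed by 0.19, with U87MG, where the level was under the filter, at 0.0064. In MBD2 they differed by 0.14, with T98G the 1 line above 0, at 0.018.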

How the results depend on the processing

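DNMT3B kept its direction in all 9 alternatives that could be fitted (0.61 to 0.75) and its call in 4 of them (trended variance prior, arrays centred on their medians, repeated quantile normalization, mean over probe sets); with the lowest 50% of genes left out it was not fitted. The 153 genes called with the mimic became 60 with no filter, 360 with the lowest 50% left out, 471 with a trended prior, 236 with centred arrays and 0 with no replicate block (127 at an unadjusted p), and ranged from 0 to 117 when a line was left out; 0 were called without U87MG (1339 at an unadjusted p) and 64 were called without A172. A fit without a line has 1 residual degree of freedom fewer. DNMT3A turned to 0.014 without T98G (range -0.11 to 0.014), and MBD1 to -0.012 without U87MG (range -0.012 to 0.137). No other member changed direction. The 9321 genes different between lines stayed within 1.5 times under each alternative, and of the members DNMT3A alone changed its call. The cause of these shifts was not tested.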
